A study of Homo sapiens with 8 samples.

Results

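DNA damage checkpoint and repair genes were followed in H460, a cultured line of human large-cell lung cancer. RNA of its TRAIL-sensitive form (H460S, labelled control) was on 4 arrays, and RNA of a form with acquired TRAIL resistance (H460R) on 4 others. The members were 42 genes of checkpoint signalling, homologous recombination, the Fanconi anaemia pathway, mismatch repair, excision repair and end joining, and 39 of them had a probe set named for them among the 19775 genes measured. BRCA2, FANCA and FANCD2 were not analysed here. Each gene was read from its brightest probe set, judged by the mean of all 8 arrays. Probe sets were assigned to members by gene name, but the members were chosen with earlier results of these data known.

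TRAIL is a ligand that triggers apoptosis through death receptors. Resistance arose during 6 months of daily TRAIL at subtoxic concentrations, and all cells were grown in RPMI with serum. The protocol text naming the TRAIL treatment stands with all 8 samples, and the group names rest on the sample titles and sources. The labels give no time since the last dose, and do not say whether H460R is 1 clone or a mixed population, or whether each array had a culture of its own. Resistance, TRAIL exposure and time in culture cannot be told apart, and the p-values rest on array-to-array spread alone, which may be technical.

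Cells answer DNA damage in layers. The kinases ATM and ATR sense breaks and stalled replication forks and pass the signal to CHEK2 and CHEK1, which halt the cell cycle, while repair enzymes mend the lesion: homologous recombination copies the sister chromatid, the Fanconi anaemia pathway unhooks crosslinks, mismatch and excision repair replace wrong or damaged bases, and end joining religates broken ends. Many of these genes are transcribed most strongly in S and G2 phase, so their RNA levels tend to follow proliferation. In tumour cells the same factors also help to tolerate replication stress.

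The arrays of a group resembled each other more than those of the other group, with mean correlations over all genes of 0.955 to 0.965 within and 0.937 to 0.942 between groups. The difference between the 3' and 5' control probe sets of ACTB, a measure of RNA degradation and labelling, changed by -0.12 on the log2 scale, with every resistant array lower (exact two-sided permutation p = 0.0286, the smallest that 4 against 4 arrays allow), and that of GAPDH differed by 0.02 (p = 0.686, same test). The part of the ACTB difference in the results was not tested. With the GAPDH difference as a covariate, 14 members rose and 6 fell, as in the fit without it. That fit cannot speak to the ACTB difference, since the GAPDH difference did not separate the groups. Among 5 markers of carcinoma cells, KRT8 lay at 11.41 in sensitive and 11.36 in resistant cells and KRT18 at 13.18 and 13.12, and KRT19 fell from 12.52 to 11.28 (-1.24, adjusted p = 0.000116, limma). EPCAM (4.40 and 3.83) and CDH1 (2.43 and 2.29) lay below the median probe set of 5.01. Of 4 leukocyte markers PTPRC, CD3E and LYZ lay below it and CD14 above, at 6.47 and 6.67. Of 4 endothelial markers VWF, CDH5 and KDR lay below it and PECAM1 above, at 6.14 and 5.73, and none of these 8 passed. Of 6 fibroblast markers, 2 fell and 0 rose (2 had an unadjusted p below 0.05), with COL3A1 at 9.96 in sensitive and 9.95 in resistant cells and LUM falling from 5.75 to 2.48. The part of these markers in the results was not tested.

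Among the 39 members, 14 were higher and 6 lower in resistant cells past the test's threshold and 19 were not, and the median change was 0.23 on the log2(signal + 1) scale, against -0.03 for all genes. Of all 19775 genes, 30.3% passed, 14.7% higher and 15.6% lower in resistant cells. All 39 members lay above the median probe set, and for the 11633 genes above it the shares were 47.2%, 23.3% and 23.9%. After median centring, 3194 of all genes were higher and 2433 lower, against 2900 and 3086 without it, and 14 members rose and 4 fell. The members that passed made up 51.3%, near the background of equally bright genes, with 35.9% higher and 15.4% lower. For 21 members (53.8%) the arrays of both groups did not overlap, against 33.9% of all genes and 52.8% of those above the median probe set. Here and throughout, rose and fell mean an adjusted p below 0.05 in limma, with Benjamini-Hochberg adjustment over all genes. Gene changes are given as log2(signal + 1) in resistant minus sensitive cells, with limma's standard error and n = 4 per group. Levels are on the same scale.

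**Figure D1:**
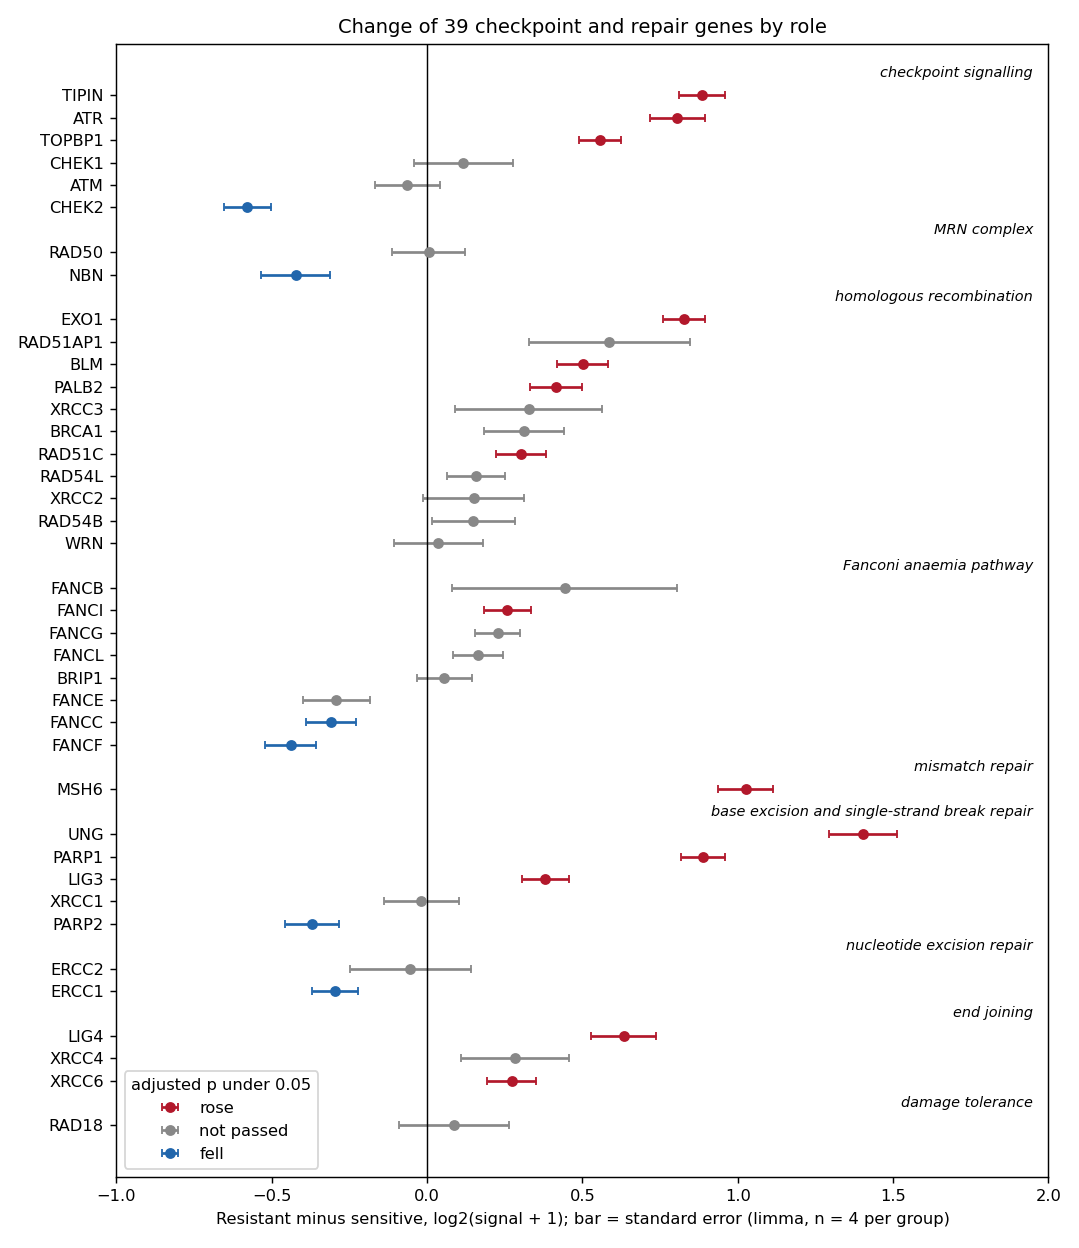
Change of each of the 39 members, as log2(signal + 1) in resistant minus sensitive cells, with limma's standard error (n = 4 per group), grouped by role. Red points rose, blue points fell and grey points did not pass at an adjusted p of 0.05. UNG and MSH6 stand farthest to the right, all 11 homologous recombination members have estimates above 0, and the 6 falls are spread over checkpoint, MRN, Fanconi and excision repair genes.

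Of 6 checkpoint genes, ATR, TOPBP1 and TIPIN rose, CHEK2 fell, and ATM and CHEK1 did not pass. ATR, the kinase that responds to stalled forks, lay at 8.41, 8.64, 8.46 and 8.50 on sensitive arrays 1 to 4 and at 9.37, 9.39, 9.31 and 9.15 on resistant arrays 1 to 4. It rose by 0.80 ± 0.09 (adjusted p = 0.000517), and the groups did not overlap. A second probe set of ATR above the median level changed by 0.78. TOPBP1, which activates ATR at damaged DNA, read 8.998, 8.978, 8.86 and 8.88 in sensitive and 9.49, 9.56, 9.45 and 9.46 in resistant cells, a rise of 0.56 ± 0.07 (adjusted p = 0.000826). TIPIN, a fork-protection factor that works with TIMELESS and helps ATR to signal to CHEK1, rose from 8.79, 8.78, 8.86 and 9.01 to 9.72, 9.75, 9.78 and 9.73. Its change of 0.88 ± 0.08 (adjusted p = 0.000174) was 1.85-fold, and the resistant arrays lay within an SD of 0.03.

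CHEK2, the effector of ATM, lay at 9.64, 9.46, 9.55 and 9.69 in sensitive and at 9.05, 8.96, 9.04 and 8.97 in resistant cells. It fell by 0.58 ± 0.08 (adjusted p = 0.00118), the largest fall among the members, and every resistant array lay below every sensitive one. ATM itself, with 7.88 to 8.19 in sensitive and 7.76 to 8.10 in resistant cells, changed by -0.06 ± 0.11 (adjusted p = 0.714), an estimate that turned to 0.01 after median centring. CHEK1, the effector of ATR, changed by 0.12 ± 0.16 on its brightest probe set (adjusted p = 0.653). Sensitive array 1 read 8.01 there, where the other sensitive arrays read 8.45 to 8.63, and without it the change was -0.02. In the fit over all probe sets, where 19.5% passed, CHEK1 had 2 further probe sets that did, with changes of 0.45 (adjusted p = 0.0274) and 0.31 (adjusted p = 0.0464). The mean of all its probe sets changed by -0.11 (adjusted p = 0.679). That mean included a probe set below the median level that changed by -1.31, while the brighter ones all had positive estimates.

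The MRN complex, which binds broken ends and recruits ATM, is represented by NBN and RAD50. NBN lay at 10.72, 10.48, 10.52 and 10.65 in sensitive and at 10.25, 9.99, 10.06 and 10.38 in resistant cells and fell by 0.42 ± 0.11 (adjusted p = 0.0252). Without sensitive array 1 or 4 or resistant array 2 or 3 it did not pass, with changes of -0.36 to -0.40 and adjusted p-values up to 0.0705. Its other bright probe sets changed by -0.24, 0.12 and -0.24, and none of them passed. RAD50 changed by 0.00 ± 0.12 (adjusted p = 0.983) on its brightest probe set, while a dimmer one rose by 0.51 (adjusted p = 0.0139 over all probe sets).

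All 11 measured members of homologous recombination had positive estimates, from 0.04 to 0.83 with a median of 0.31. Of these, 4 rose (36.4%, against 23.3% of genes above the median probe set). Of 12 measured homologous recombination genes outside the members, 7 had positive and 5 negative estimates, with a median of 0.10. Among these members EXO1, the exonuclease that resects broken ends and also serves mismatch repair, moved most. It went from 10.07, 10.24, 10.12 and 10.21 to 10.98, 11.01, 11.01 and 10.95. It rose by 0.83 ± 0.07 (adjusted p = 0.000155). BLM, the helicase mutated in Bloom syndrome, rose by 0.50 ± 0.08 (adjusted p = 0.00326), from 7.71, 7.58, 7.70 and 7.77 to 8.22, 8.20, 8.05 and 8.29. PALB2, the bridge between BRCA1 and BRCA2, read 7.92, 7.76, 7.78 and 8.02 in sensitive and 8.26, 8.32, 8.22 and 8.36 in resistant cells, a rise of 0.42 ± 0.08 (adjusted p = 0.00816). For these 3 genes the groups did not overlap. RAD51C, a recombination factor, rose by 0.30 ± 0.08 (adjusted p = 0.0278), from 8.67 to 8.91 in sensitive cells to 9.04 to 9.22 in resistant cells. It still passed without sensitive array 1, but not without any other single array, where the change was 0.26 to 0.32 and the adjusted p reached 0.0677. A second RAD51C probe set, of similar brightness, changed by 0.13 (adjusted p = 0.442 over all probe sets).

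BRCA1, the scaffold of recombination, and RAD51AP1, an accessory factor of recombination, did not pass, and in each 1 array lay away from its group. BRCA1 lay at 8.65, 9.06, 8.91 and 8.81 in sensitive and at 9.28, 9.26, 9.25 and 8.89 in resistant cells, a change of 0.31 ± 0.13 (adjusted p = 0.116). Without resistant array 4, which stood below the other resistant arrays, the change was 0.41 (adjusted p = 0.0352). RAD51AP1 lay at 7.65 on sensitive array 1 and at 8.48 to 8.86 on the other sensitive arrays, against 8.74 to 9.18 in resistant cells, a change of 0.59 ± 0.26 (adjusted p = 0.139). Without sensitive array 1 the change of RAD51AP1 was 0.34, which did not pass. The translocases RAD54L and RAD54B changed by 0.16 ± 0.09 and 0.15 ± 0.13, the recombination factors XRCC2 and XRCC3 changed by 0.15 ± 0.16 and 0.33 ± 0.24, and WRN, the helicase of Werner syndrome, changed by 0.04 ± 0.14. None of these 5 passed, and the estimate for WRN turned below 0 without sensitive array 3 (-0.05) or resistant array 3 (-0.03).

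**Figure D2:**
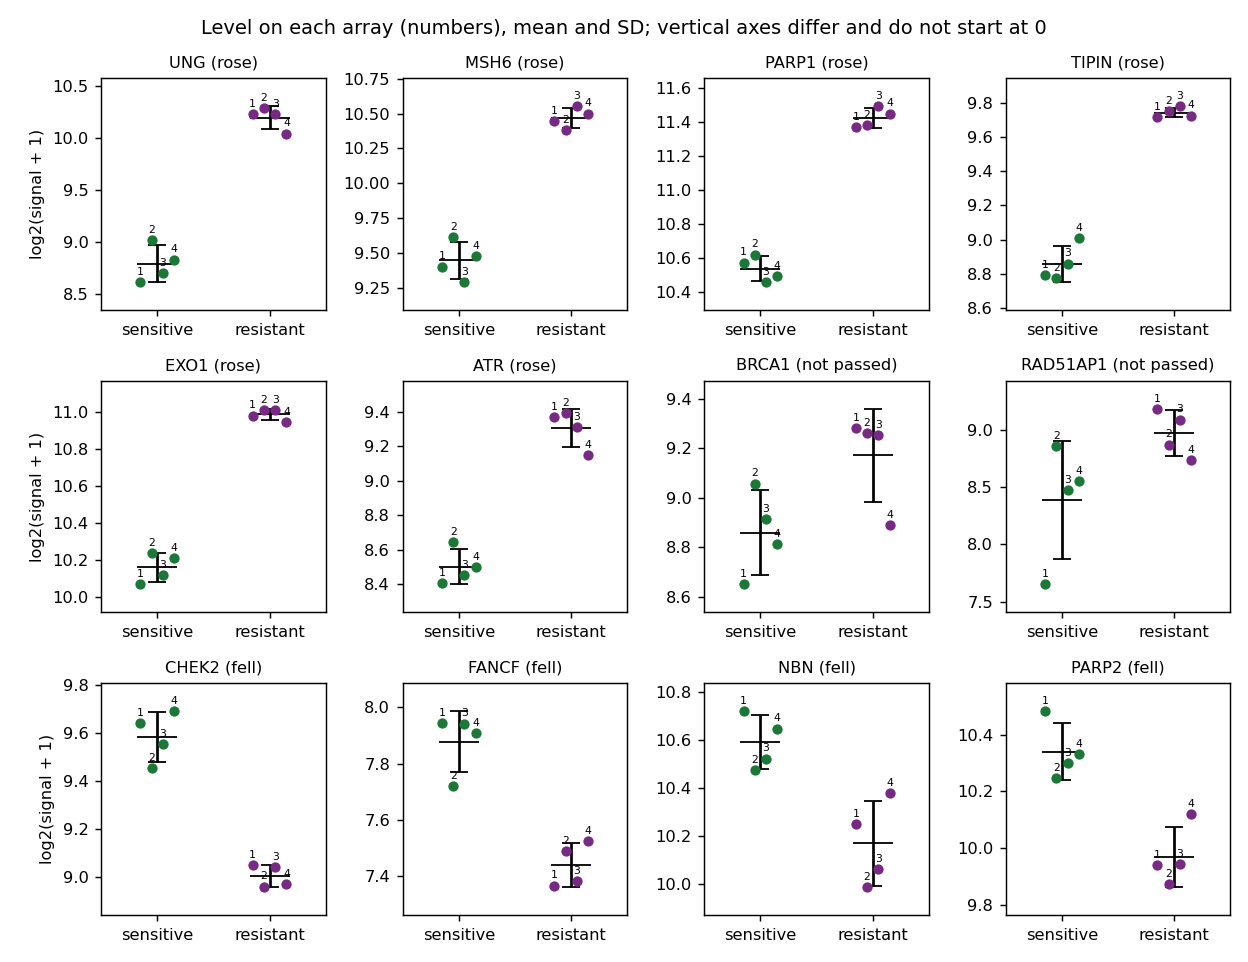
Level of 12 members on each array on the log2(signal + 1) scale, with the array number beside each point, the group mean as a bar and the SD as whiskers (n = 4 per group). Vertical axes differ between panels. UNG, MSH6, PARP1, TIPIN, EXO1 and ATR separate the groups with resistant arrays above, CHEK2, FANCF, NBN and PARP2 with resistant arrays below, and resistant array 4 for BRCA1 and sensitive array 1 for RAD51AP1 lie away from the rest of their group.

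Of the 8 Fanconi anaemia genes with a value, 1 rose and 2 fell, the other 5 did not pass, and the median change was 0.11. FANCF, an adaptor of the core complex, lay at 7.94, 7.72, 7.94 and 7.91 in sensitive and at 7.37, 7.49, 7.38 and 7.52 in resistant cells and fell by 0.44 ± 0.08 (adjusted p = 0.00604). Its second probe set fell by 0.42. FANCC, another core subunit, fell by 0.31 ± 0.08 (adjusted p = 0.0239), from 7.26 to 7.34 in sensitive cells to 6.87 to 7.15 in resistant cells. That call was lost without sensitive array 1 or 3 or resistant array 1, 2 or 3 (changes of -0.27 to -0.31, adjusted p-values up to 0.0660) and after median centring (-0.24, adjusted p = 0.0742) or quantile normalization (-0.25, adjusted p = 0.0604).

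FANCI, the partner in the ubiquitinated clamp, rose by 0.26 ± 0.08 (adjusted p = 0.0373), from 9.54, 9.64, 9.73 and 9.69 to 9.95, 9.97, 9.92 and 9.80. It passed only without resistant array 4 among the fits that left out 1 array, the other changes being 0.22 to 0.29 with adjusted p-values up to 0.0963, and its other probe sets, of similar brightness, changed by -0.03 and -0.01. FANCG, a core subunit, separated the groups without overlap at 8.77 to 8.96 against 9.07 to 9.18, yet its change of 0.23 ± 0.07 had an adjusted p of 0.0509. After median centring it was 0.30 (adjusted p = 0.0375). FANCE, which links the core to its substrates, changed by -0.29 ± 0.11 (adjusted p = 0.0857), and by -0.39 (adjusted p = 0.0160) without sensitive array 3. FANCL, the ubiquitin ligase, changed by 0.16 ± 0.08 and the helicase BRIP1 by 0.06 ± 0.09, and neither passed. The other BRIP1 probe set, also above the median level, changed by 0.66 (adjusted p = 0.0799 over all probe sets).

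FANCB was the dimmest member, at 4.41 to 5.91 in sensitive and 5.39 to 6.31 in resistant cells on its brightest probe set, with a change of 0.44 ± 0.36 (adjusted p = 0.431). Another of its probe sets rose by 1.29 (adjusted p = 0.00432 over all probe sets), from 4.87 to 6.16. A further one rose by 0.64 (adjusted p = 0.0353 over all probe sets), from 4.84 to 5.47. The mean of its 4 probe sets changed by 0.63 (adjusted p = 0.0157).

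The largest rises among all members were those of UNG, read from its only probe set, and MSH6. UNG encodes uracil-DNA glycosylase, which cuts uracil out of DNA to start base excision repair. It lay at 8.62, 9.02, 8.70 and 8.84 in sensitive and at 10.24, 10.29, 10.23 and 10.05 in resistant cells. It rose by 1.40 ± 0.11 (adjusted p = 0.000121), or 2.65-fold, a larger change in size than that of 94.4% of all genes. MSH6, a subunit that recognises mismatches, read 9.40, 9.61, 9.29 and 9.48 in sensitive and 10.45, 10.38, 10.55 and 10.50 in resistant cells, a rise of 1.02 ± 0.09 (adjusted p = 0.000195). A second bright probe set of MSH6 rose by the same 1.02, while the mean that included its 2 probe sets below the median level changed by 0.74 (adjusted p = 0.0775). MSH6 was the only measured mismatch repair gene among the members, so nothing is shown here about that pathway as a whole.

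Of the genes that mend single-strand breaks, the related polymerases of poly(ADP-ribose) went opposite ways. PARP1, the main sensor of nicks, rose from 10.57, 10.62, 10.46 and 10.49 to 11.37, 11.38, 11.49 and 11.45, by 0.89 ± 0.07 (adjusted p = 0.000133). PARP2 fell from 10.48, 10.25, 10.30 and 10.33 to 9.94, 9.87, 9.94 and 10.12, by 0.37 ± 0.09 (adjusted p = 0.0159). The other probe sets of PARP2 changed by -0.36 and -0.27. LIG3, which seals the nick, rose by 0.38 ± 0.08 (adjusted p = 0.00747), from 8.14 to 8.29 in sensitive cells to 8.56 to 8.74 in resistant cells. Its probe sets disagreed: another rose by 0.33 (adjusted p = 0.0490 over all probe sets), but 2 others above the median level changed by -0.28 and -0.22 and the mean of all changed by 0.19 (adjusted p = 0.263). XRCC1, the scaffold that holds LIG3, changed by -0.02 ± 0.12 (adjusted p = 0.931), with arrays at 6.90 to 7.11 and 6.71 to 7.15, and its sign turned with the scaling (0.05 after median centring).

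Nucleotide excision repair had 2 members, of which 1 fell. ERCC1, part of the nuclease that cuts 5' of the lesion, lay at 9.66 to 9.86 in sensitive and 9.39 to 9.53 in resistant cells and fell by 0.30 ± 0.08 (adjusted p = 0.0222). The call was lost under median centring (-0.22, adjusted p = 0.131) and without sensitive array 2 or 3 or resistant array 2 or 3 (-0.26 to -0.29, adjusted p-values up to 0.0651). The other ERCC1 probe sets, both above the median level, changed by -0.15 and -0.11, and neither passed. ERCC2, the helicase of TFIIH, changed by -0.05 ± 0.19 (adjusted p = 0.876), and by 0.02 after median centring.

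Of 3 end joining members 2 rose. LIG4, the ligase of this pathway, rose by 0.63 ± 0.11 (adjusted p = 0.00351), from 6.83, 7.22, 7.11 and 7.14 to 7.84, 7.66, 7.70 and 7.63, and its second probe set changed by 0.57. XRCC4, which holds LIG4, changed by 0.28 ± 0.17 (adjusted p = 0.281), with sensitive array 2 at 7.22 below the rest at 7.80 to 7.98. XRCC6, the Ku70 subunit that caps broken ends, was the brightest member, at 12.06 to 12.16 against 12.26 to 12.53, and rose by 0.27 ± 0.08 (adjusted p = 0.0368). That call was kept only without resistant array 3 among the fits that left out 1 array, with changes of 0.23 to 0.29 in the others and adjusted p-values up to 0.0905. RAD18, the ligase that starts damage tolerance, changed by 0.09 ± 0.18 on its brightest probe set (adjusted p = 0.774), and by -0.02 without sensitive array 1, while a dimmer one rose by 0.56 (adjusted p = 0.0403 over all probe sets).

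The 39 members had 87 probe sets, 18 members having 1 and 21 several. Of 35 further probe sets above the median level, 29 changed with the same sign as the one used. For the members that passed there were 18 such probe sets, 13 with the same sign and 5 that passed in the same direction. Calls in opposite directions within a member that passed numbered 0. In the fit over all probe sets, NBN, RAD51C, FANCC, FANCI, ERCC1 and XRCC6 did not pass with the same probe sets, and the other 14 of the 20 calls were made there too.

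**Figure D3:**
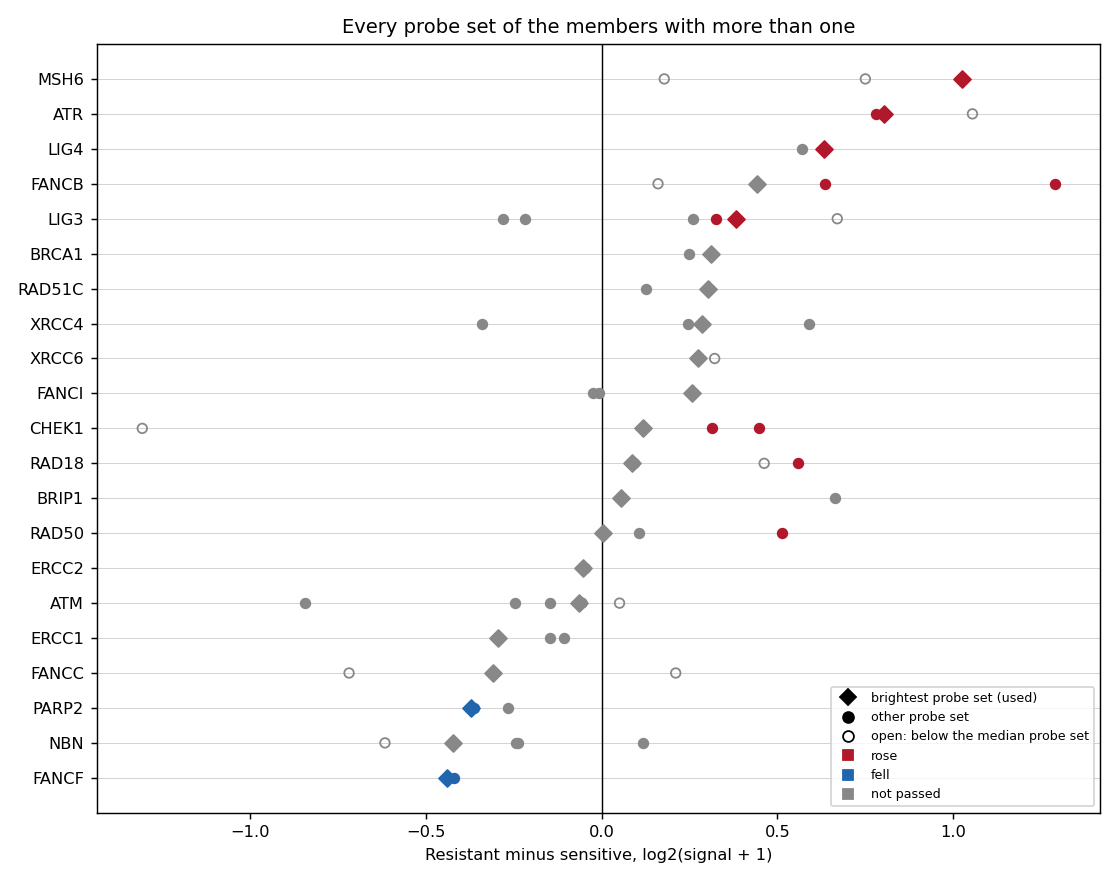
Change of every probe set of the 21 members with more than 1, as log2(signal + 1) in resistant minus sensitive cells. Diamonds are the brightest probe sets, which were used, open symbols lie below the median probe set, and colours give the call in the fit over all probe sets. The bright probe sets of ATR, MSH6, PARP2 and FANCF lie close together, while those of LIG3, XRCC4, CHEK1, BRIP1 and FANCB spread.

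For 18 pairs of partners or related genes the change of the within-array log2 difference was computed. The pairs were picked after values were seen, so the differences are a description, with no test. Their standard errors come from the spread of the differences within each group alone, not from limma. They are not comparable with the errors given for single genes. PARP1 exceeded PARP2 in its change by 1.26 ± 0.08, ATR exceeded ATM by 0.87 ± 0.10, and CHEK1 exceeded CHEK2 by 0.70 ± 0.20. BRCA1 changed by 0.85 ± 0.17 more than BARD1, its obligate partner, which fell by 0.54. TIPIN changed by 0.62 ± 0.07 more than TIMELESS, although both rose. ERCC1 changed by -0.94 ± 0.11 relative to ERCC4, the catalytic subunit of the same nuclease, which rose by 0.64, and FANCF by -0.67 ± 0.04 relative to FANCG. XRCC6 exceeded XRCC5, the Ku80 subunit, by 0.39 ± 0.04, LIG3 exceeded XRCC1 by 0.40 ± 0.12, ATR exceeded TOPBP1 by 0.25 ± 0.07, and FANCL changed by -0.21 ± 0.07 relative to UBE2T, its ubiquitin-conjugating enzyme. The other differences, first gene minus second, were those of NBN and RAD50 (-0.43 ± 0.18), LIG4 and XRCC4 (0.35 ± 0.22), PALB2 and BRCA1 (0.10 ± 0.18), BRIP1 and BRCA1 (-0.26 ± 0.14), RAD51C and XRCC3 (-0.02 ± 0.24), RAD50 and MRE11 (-0.12 ± 0.12) and RAD18 and UBE2B (-0.12 ± 0.20).

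**Figure D4:**
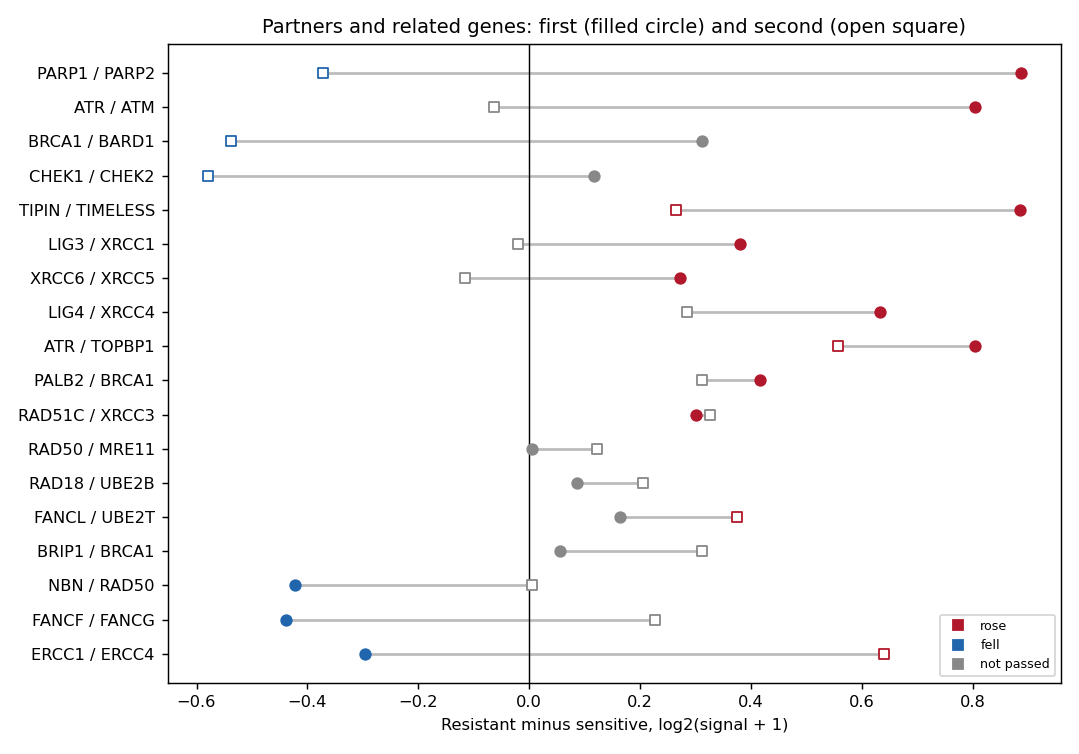
Changes of the 18 pairs of partners or related genes, as log2(signal + 1) in resistant minus sensitive cells. Filled circles are the first gene named, open squares the second, colours give the call, and the grey line is the difference between them. PARP1 and PARP2 lie farthest apart at 0.89 and -0.37, and RAD51C and XRCC3 closest at 0.30 and 0.33.

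The rest of the repair machinery was mixed. Of 85 other repair genes listed, 75 were measured, of which 21 rose and 15 fell, with a median change of 0.07. Among checkpoint genes outside the members, 5 of 13 rose and 0 fell (8 had an unadjusted p below 0.05), led by CDC25A, the phosphatase that CHEK1 restrains (1.75 ± 0.07), RAD9A of the 9-1-1 clamp (1.45 ± 0.17) and CLSPN, the adaptor between ATR and CHEK1 (1.24 ± 0.09). In homologous recombination 5 of 12 rose and 3 fell. RPA1, which coats single-stranded DNA, rose by 0.90 ± 0.08, and the nuclease gene MUS81 fell by 0.67 ± 0.09. Base excision repair split as well, with 3 of 13 rising and 4 falling: the flap endonuclease gene FEN1 rose by 1.34 ± 0.09 and the glycosylase gene NEIL3 fell by 1.24 ± 0.08. In nucleotide excision repair 3 of 10 rose, among them ERCC3, a TFIIH helicase (0.82 ± 0.08), and 2 fell, among them DDB2, a sensor of ultraviolet damage (-0.72 ± 0.07). Of 10 genes of damage tolerance 2 rose and 3 fell, the polymerase gene POLI by 1.01 ± 0.10. Of 8 further Fanconi genes 2 rose and 0 fell (4 had an unadjusted p below 0.05), and of 5 end joining genes 1 rose and 1 fell. Of the 3 measured mismatch repair genes, PMS1 and MLH3 fell by 0.48 ± 0.09 and 0.52 ± 0.09.

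Most of the proliferation genes listed rose. Of 18 S phase genes 15 rose and 1 fell, with a median change of 0.59, and of 15 mitosis genes 11 rose and 0 fell, with a median of 0.40 (12 had an unadjusted p below 0.05). The shares that rose were 83.3% and 73.3%, against 23.3% of genes above the median probe set. The clamp gene PCNA, on which UNG and MSH6 both dock, rose by 1.22 ± 0.11. The part of proliferation in the rises of repair genes was not tested, and more cells in S phase and more RNA per cell cannot be told apart in these bulk samples. The median change of the members was 0.23, with 14 that rose and 6 that fell.

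The members lay on 18 chromosomes. For 38 members the median change of the 10 measured genes on each side was computed, with the gene order of RefSeq assembly GRCh38.p14. Over 19243 such windows the 5th and 95th percentiles of this median were -0.35 and 0.25. UNG had neighbours with a median of 0.12, of which 2 rose and 3 fell, and for MSH6 it was 0.11, with 2 of each. ATR rose amid neighbours with a median of -0.26, and CHEK2 fell amid neighbours with 0.05. The 3 members whose neighbours lay beyond those percentiles were FANCB (-0.35, 9 of 20 neighbours lower), XRCC3 (0.28) and FANCE (0.28), and none of these 3 passed themselves.

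Promoter sequences are shown for the members whose windows held a match to the E2F motif, since E2F factors drive many S phase genes, and for MSH6, whose rise was among the largest and whose window held a CCAAT box close to the start. Windows were the 250 bases before the start site in RefSeq (GRCh38.p14), found for 35 of the 39 members. Both strands were searched for TTTNGCGC (E2F), CCAAT (bound by NF-Y) and TTTGAA (the cell cycle homology region), and matches to different motifs do not overlap in the windows shown. Capitals mark matches, a CCAAT box on the other strand reading ATTGG.

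TIPIN, chr15:66356686-66356935, minus strand: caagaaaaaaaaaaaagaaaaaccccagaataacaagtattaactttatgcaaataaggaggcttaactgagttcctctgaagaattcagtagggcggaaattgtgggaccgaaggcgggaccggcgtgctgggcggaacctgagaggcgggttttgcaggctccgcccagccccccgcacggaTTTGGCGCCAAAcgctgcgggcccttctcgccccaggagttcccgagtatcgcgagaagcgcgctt
XRCC6, chr22:41621045-41621294, plus strand: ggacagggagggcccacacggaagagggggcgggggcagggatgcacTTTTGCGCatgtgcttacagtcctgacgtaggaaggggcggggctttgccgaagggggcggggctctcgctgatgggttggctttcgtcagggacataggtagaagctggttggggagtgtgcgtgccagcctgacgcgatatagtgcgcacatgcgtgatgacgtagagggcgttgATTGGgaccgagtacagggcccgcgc
CHEK2, chr22:28741821-28742070, minus strand: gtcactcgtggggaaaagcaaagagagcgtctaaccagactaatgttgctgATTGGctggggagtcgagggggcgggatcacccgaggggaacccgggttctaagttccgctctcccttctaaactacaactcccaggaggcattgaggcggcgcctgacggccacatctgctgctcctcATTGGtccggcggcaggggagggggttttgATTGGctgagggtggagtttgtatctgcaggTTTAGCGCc
MSH6, chr2:47782895-47783144, plus strand: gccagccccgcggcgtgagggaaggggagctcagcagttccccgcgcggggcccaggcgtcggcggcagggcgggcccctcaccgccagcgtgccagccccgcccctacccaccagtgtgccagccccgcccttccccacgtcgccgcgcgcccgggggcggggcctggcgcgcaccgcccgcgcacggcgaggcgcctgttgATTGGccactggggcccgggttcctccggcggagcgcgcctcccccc

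TIPIN rose by 0.88, XRCC6 by 0.27 and MSH6 by 1.02, and CHEK2 fell by 0.58. The TIPIN match is a palindrome that begins 66 bases before the start and matches on both strands, and CHEK2 had its match 9 bases before the start along with 3 CCAAT boxes. The E2F letters stood in 3 of the 35 member promoters (8.57%), against 2.43% of promoters of measured genes above the median probe set and 1.51% of all 27305 promoters, and in 5 of 15 promoters of S phase genes (33.3%). They were in 2 of 13 members that rose, 1 of 5 that fell and 0 of 17 that did not pass. CCAAT stood in 17 of 35 member promoters (48.6%), against 34.8% and 32.9%, and was found in 5 of 13 members that rose, 3 of 5 that fell and 9 of 17 that did not pass. TTTGAA stood in 3 of 35 (8.57%), against 8.9% and 13.7%. UNG, PARP1, EXO1, ATR and TOPBP1 held none of the 3 motifs in these windows.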

How the data were processed

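Per the labels, biotin-labelled RNA of 8 H460 samples was hybridised to Affymetrix arrays. The deposited values are linear probe set intensity signals for 54675 probe sets. Per the submitters' processing notes the tool was RMA (version not given in the sources used here), but every array has the same mean of 200.0 after trimming 2% of probe sets at each end, the form of MAS 5-type signals, so the step that made them is not settled. Arrays show no depth, and their number limits the precision. Signals were analysed as log2(signal + 1), with no further normalization. The platform annotation named 41097 probe sets with 1 symbol, 1801 had several and were left out, and symbols were updated through the RefSeq gene table (GRCh38.p14). RAD54B has 2 further probe sets shared with another symbol, not used here. limma 3.58.1 in R 4.3.3 (lmFit, eBayes) compared 4 with 4 arrays over all 19775 genes, with Benjamini-Hochberg adjustment. The fit was tested on simulated data, but no outcome is given here, so nothing about its accuracy is shown. Alternatives were a pseudocount of 16, quantile normalization, median centring, the replicate block, other variance priors, array weights, dim probe sets left out, other probe set choices, the GAPDH 3' minus 5' difference as covariate, stricter thresholds and leaving out each array.

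Members and lists were chosen with earlier results of these data known. All members could be named, and of other lists up to 3 per direction with the largest changes. The 18 pairs, the cell type markers printed and the genes named only as partners were chosen after values were seen.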

Additional observations from a re-analysis of the deposited data

Results flagged for a closer look

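In 3 of 78 groups of 4 arrays (39 members in each cell group) 1 array stood apart from the others by Dixon's criterion, which chance gives in about 1 of 20 groups. BRCA1 lay at 8.89 on resistant array 4, against 9.25 to 9.28 on the other resistant arrays. FANCF lay at 7.72 on sensitive array 2, against 7.91 to 7.94, and FANCG at 8.77 on the same array, against 8.93 to 8.96.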

How the results depend on the processing

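Of 20 members that passed, 11 did so in every alternative they could be fitted in, stricter thresholds apart. ATR, TOPBP1, TIPIN, PALB2, EXO1, BLM, PARP1, UNG and LIG4 rose, and CHEK2 and FANCF fell. Of these 11, CHEK2, TOPBP1, TIPIN, PALB2, EXO1, BLM, PARP1 and UNG have 1 probe set each. The fits with other probe set choices could not test those genes. MSH6 and LIG3, which have several, were lost only when probe sets of a gene were averaged. The members that fell numbered 3 with the replicate block, 3 when probe sets of a gene were averaged, 1 of 32 tested with probe sets without a suffix, 2 at an adjusted p under 0.01 and 0 at 1.5-fold or more, and 3 to 6 when leaving out each array. The members that rose numbered 7 at 1.5-fold or more and 11 with the replicate block. With the block, PARP2 (adjusted p = 0.0603), RAD51C, FANCC, FANCI, ERCC1 and XRCC6 did not pass. Same-numbered arrays had correlations of deviations of -0.07 to 0.11, and not every array correlated best with its own number. The highest correlation was 0.15, between sensitive array 1 and resistant array 4. Correlations this small, from so few arrays, cannot show whether same-numbered arrays shared more than a number. Other repair genes that rose numbered 13 with probe sets without a suffix and 13 at 1.5-fold, and those that fell 9 with the replicate block, 9 at an adjusted p under 0.01 and 5 at 1.5-fold. Of all genes, 3795 passed at an adjusted p under 0.01 (1841 higher, 1954 lower) and 3462 at 1.5-fold (1551 higher, 1911 lower).

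Estimates that turned sign belonged to members that had not passed and to pairs, except FANCC (0.21 with probe sets without a suffix). ATM was 0.00842 after median centring, CHEK1 -0.11 with averaged probe sets, and XRCC4 -0.34 with probe sets without a suffix. RAD50 was -0.0199 and WRN -0.00869 with the GAPDH covariate. XRCC1 was 0.0357 after quantile normalization, 0.0533 after median centring and 0.0023 with array weights, and ERCC2 0.00709 and 0.0179 after quantile normalization and median centring. Among pairs, BRIP1 minus BRCA1 was 0.0800 and RAD18 minus UBE2B 0.00231 with averaged probe sets, and RAD51C minus XRCC3 0.0206 with a pseudocount of 16. Leaving out each array gave -0.112 to 0.00319 for ATM, -0.0216 to 0.186 for CHEK1, -0.0596 to 0.0900 for RAD50, -0.0514 to 0.129 for WRN, -0.0757 to 0.0700 for XRCC1, -0.188 to 0.0902 for ERCC2 and -0.0205 to 0.186 for RAD18. It gave -0.0124 to 0.189 for PALB2 minus BRCA1 and -0.193 to 0.145 for RAD51C minus XRCC3. The pairs, given with no test, and their alternatives were chosen after seeing the data. The cause was not tested. FANCB was the dimmest member, at a mean level of 5.57.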

Other observations

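Genes activated by p53, which H460 cells carry in functional form, were mixed. Of 8 measured targets 1 rose (12.5%), 2 fell (25%) and 5 did not pass, with a median change of -0.07. Of genes above the median probe set, 23.3% rose and 23.9% fell, so a list this small shows little about p53 targets. CDKN1A, the inhibitor of cyclin-dependent kinases, rose by 0.30 ± 0.08 (adjusted p = 0.0281, limma), while the growth arrest gene GADD45A fell by 1.12 ± 0.08 (adjusted p = 8.79e-05, limma) and the stress gene SESN1 by 0.40 ± 0.11 (adjusted p = 0.0297, limma).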
